A study of Mus musculus with 11 samples.

Results

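The 5 genes described encode transcription regulators: the GATA factors Gata4, Gata5 and Gata6, and the FOG cofactors Zfpm1 (FOG1) and Zfpm2 (FOG2). All probe sets of the array whose only annotated gene symbol is one of these names were taken, whatever their signal. This gave 5 of the 18193 named genes and 11 of the 45037 probe sets tested, with 2 each for Gata4, Gata5, Zfpm1 and Zfpm2 and 3 for Gata6. The samples were pools of mouse hearts taken at embryonic day 9.5, and 11 single-colour arrays were run, 1 for each. Conditional knockout hearts (CKO, n = 5) were Gata4 flox/flox; Nkx2-5 cre/+. Double heterozygous hearts (n = 3) were Gata4 flox/+; Nkx2-5 cre/+. Control hearts (n = 3) were Gata4 flox/+; Nkx2-5 +/+, so every heart of the study carried at least 1 floxed Gata4 allele. Cre recombinase was present in 8 arrays, and the labels place it at the Nkx2-5 locus on 1 allele. Nkx2-5 is a homeobox gene of heart progenitors and heart muscle, and a Cre at this locus acts in cells that express it and in their descendants. Where and how completely Gata4 was recombined in these hearts was not measured. The labels number the replicates without saying whether each was its own pool or litter. A p-value here therefore covers the spread among these arrays alone, and that spread may be technical.

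GATA factors are zinc-finger transcription factors that bind GATA motifs in enhancers and promoters. GATA4, GATA5 and GATA6 are the members of the family found in heart and endoderm; in the mouse, GATA4 and GATA6 act together in heart muscle and GATA5 is best known in the endocardium. FOG proteins do not bind these motifs themselves but attach to the amino-terminal zinc finger of a GATA factor and bring in corepressors such as the NuRD complex and CtBP. FOG1 is best known as the partner of GATA1 in blood cells, and FOG2 as the partner of GATA4 in the mouse heart.

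Promoter sequences of 2 of the 5 genes were in the RefSeq table used (GRCm38.p6), Gata5 at chr2:180334630-180334929 on the minus strand and Zfpm1 at chr8:122281891-122282190 on the plus strand. Both are shown because a reader may ask whether these genes carry a GATA motif close to the start. Each runs from 250 bases before the annotated gene start to 50 bases after it. Capitals mark the E-box CACGTG and the GC box GGGCGG, searched on both strands.

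Gata5: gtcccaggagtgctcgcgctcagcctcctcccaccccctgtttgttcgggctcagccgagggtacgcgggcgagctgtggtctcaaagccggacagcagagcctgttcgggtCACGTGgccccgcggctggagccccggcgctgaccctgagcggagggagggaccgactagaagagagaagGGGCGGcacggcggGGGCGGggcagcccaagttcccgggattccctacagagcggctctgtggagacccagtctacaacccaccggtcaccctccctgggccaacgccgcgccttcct

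Zfpm1: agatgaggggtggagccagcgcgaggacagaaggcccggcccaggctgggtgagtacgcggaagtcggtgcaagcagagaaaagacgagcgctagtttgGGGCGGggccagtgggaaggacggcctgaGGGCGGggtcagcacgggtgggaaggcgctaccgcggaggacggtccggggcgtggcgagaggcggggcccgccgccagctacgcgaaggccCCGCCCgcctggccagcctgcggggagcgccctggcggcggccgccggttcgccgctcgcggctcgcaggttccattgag

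The 4 GATA hexamers (A or T, then GATA, then A or G), searched on both strands, had 0 matches in the Gata5 window and 0 in the Zfpm1 window, whereas 29.8% of 32851 promoters of the same length held at least 1. The shorter core GATA also had 0 matches in each, against 57.9% of promoters with one. The Gata5 window held 1 CACGTG and 2 GGGCGG, and the Zfpm1 window held 0 CACGTG and 3 GGGCGG. Among all promoters 7.15% held CACGTG and 35.7% held GGGCGG. Their GC content was 69.7% for Gata5 and 73.7% for Zfpm1, against a median of 52.7% over all promoters. These are matches of letters in these windows and say nothing of binding here or elsewhere at the genes.

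Signals are given as log2(intensity + 16) after quantile normalisation, and differences between groups as log2 fold changes from a limma fit over all probe sets and all 11 arrays. A probe set was called at a Benjamini-Hochberg adjusted p under 0.05. Because of the offset of 16, differences of dim probe sets come out smaller than they are. Levels of different probe sets are not comparable, so no gene is ranked above another by its signal. CKO replicate 3 was dim, with a mean deposited intensity of 117 against 166 to 176 in the other 10 arrays. For the actin control probes, the 3′ signal exceeded the 5′ signal by 1.001 log2 units in CKO replicate 2 and by 0.29 to 0.45 in the remaining arrays. Correlation with the other arrays of its group averaged 0.967 for CKO replicate 2 and 0.965 for CKO replicate 3, against 0.977 to 0.988 in the rest. Calls of the GATA and FOG probe sets and of the gene lists in CKO minus control that change when both arrays are left out are given beside the result.

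In CKO against control hearts, 1 probe set of each of the 3 GATA genes was called, all of them higher, and no FOG probe set was called. Gata4, Gata5 and Gata6 were 1.37-fold, 1.35-fold and 1.33-fold higher on the probe set with the highest mean signal of each gene. Over the whole array 0.837% of probe sets were called higher in this comparison (377 of 45037, with 255 called lower, so that 59.7% of calls were higher, against 48.9% on the deposited scale and 39.2% after median centring). The 11 members had a median log2 fold change of 0.12, against -0.0079 over all probe sets, and 7 of them had a higher mean in CKO hearts. After quantile normalisation, all 5 CKO arrays lay above all 3 control arrays for 4 of the 11, against 3.93% of all probe sets. On the deposited scale CKO replicate 3, the dim array, lay among or below the controls on each of these 4. All 3 calls depended on the scaling between arrays: without quantile normalisation, on the deposited scale, the members called numbered 0, and the adjusted p were 0.599 for Gata4, 0.635 for Gata5 and 0.651 for Gata6.

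Gata4 encodes the factor whose alleles were floxed. On its brighter probe set, 1418863_at, the CKO arrays had log2 values of 9.53, 9.28, 9.45, 9.37 and 9.53, the double heterozygous arrays 9.40, 9.21 and 9.33, and the control arrays 8.77, 9.09 and 9.09. All 8 Cre arrays were above all 3 control arrays, and CKO and double heterozygous arrays overlapped. CKO exceeded control by 0.45 ± 0.10 (SE; 95% interval 0.24 to 0.66; adjusted p = 0.0321). Deposited intensities on this probe set were 487 to 729 in CKO, 617 to 687 in double heterozygous and 449 to 553 in control arrays, and on that scale CKO replicate 3, the dim array, lay among the controls. The 95% interval of CKO minus double heterozygous was -0.09 to 0.33 around 0.12 (adjusted p = 0.668), and this difference was -0.0035 on the deposited scale. On this probe set the mean Gata4 signal of arrays labelled CKO was thus not lower than that of controls. The sources used here do not place the Gata4 probe sets relative to the floxed stretch, so their signal does not check the deletion. Groups are named throughout as the labels name them.

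The other Gata4 probe set, 1418864_at, was at 8.81, 6.42, 8.65, 8.44 and 8.26 in CKO arrays, 8.65, 8.40 and 8.27 in double heterozygous arrays, and 7.98, 7.98 and 8.15 in control arrays. CKO replicate 2, the array with the large actin 3′ to 5′ difference, stood far below every other array. The other 4 CKO arrays were above all control arrays after quantile normalisation. On the deposited scale CKO replicate 3, at an intensity of 265, lay within the control range of 247 to 284. With all arrays CKO minus control was 0.08 ± 0.38 (SE; adjusted p = 0.958), and without CKO replicate 2 it was 0.51 (adjusted p = 0.0569). On the deposited scale the sign turned, to -0.08. The part of RNA quality in the value of CKO replicate 2 was not tested.

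Gata5, too, was called on only 1 of its 2 probe sets. On 1450126_at the CKO arrays had 8.96, 8.74, 8.86, 8.60 and 8.65, the double heterozygous arrays 8.71, 8.47 and 8.57, and the control arrays 8.35, 8.30 and 8.35. All 8 arrays with Cre were above the controls after quantile normalisation. On the deposited scale CKO replicate 3, at an intensity of 314, lay within the control range of 312 to 331. CKO exceeded control by 0.43 ± 0.10 (SE; 95% interval 0.22 to 0.64; adjusted p = 0.0464). With CKO replicates 2 and 3 both left out, the difference was 0.40 and no longer called (adjusted p = 0.0507). The dimmer probe set 1450125_at ranged from 6.75 to 7.43 (median 7.13) in CKO arrays, from 7.12 to 7.26 in double heterozygous arrays and from 6.87 to 7.06 in control arrays. Its CKO minus control difference was 0.12 ± 0.14 (SE; adjusted p = 0.797) and turned to -0.0065 on the deposited scale and to -0.021 without CKO replicates 2 and 3. Gata5os, a transcript antisense to Gata5 and no member, was at 4.01 to 4.91 in CKO and 4.33 to 5.26 in control arrays (log2 fold change -0.20, adjusted p = 0.78), close to the value of 4 that an intensity of 0 gives.

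Gata6, the partner of Gata4 in heart muscle, was called on 1 of its 3 probe sets. On 1425464_at the CKO arrays had 9.46, 9.62, 9.501, 9.58 and 9.47, the double heterozygous arrays 9.25, 9.27 and 9.39, and the control arrays 9.05, 9.12 and 9.17. After quantile normalisation no group overlapped another, and the share of all probe sets with such full separation was not counted. On the deposited scale CKO replicate 3, at an intensity of 504, lay below all control arrays (549 to 588) and all double heterozygous arrays (614 to 653). CKO exceeded control by 0.41 ± 0.08 (SE; 95% interval 0.25 to 0.58; adjusted p = 0.0142). It was also the only member called by the F-test over the 3 groups (adjusted p = 0.0357), by which 0.961% of all probe sets were called. The call remained with CKO replicates 2 and 3 both left out (0.39, adjusted p = 0.0163). It was lost on the deposited scale, where the difference was 0.26, but remained there once CKO replicate 3 was also left out (0.37, adjusted p = 0.0353), a setting chosen after the data were seen.

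The second Gata6 probe set, 1425463_at, was at 9.05, 8.58, 9.12, 8.95 and 8.96 in CKO arrays, 8.86, 8.71 and 8.95 in double heterozygous arrays and 8.63, 8.37 and 8.71 in control arrays. CKO replicate 2 was again the lowest CKO array and, after quantile normalisation, the only one among the controls. On the deposited scale CKO replicate 3, at an intensity of 385, also lay within the control range of 327 to 421. CKO minus control was 0.36 ± 0.12 (SE; adjusted p = 0.175), and it was 0.45 and called without CKO replicate 2 (adjusted p = 0.0273), and 0.41 and called without CKO replicates 2 and 3 (adjusted p = 0.0393). The dimmest Gata6 probe set, 1443081_at, lay at 5.99 to 6.45 in CKO arrays, 5.55 to 6.01 in double heterozygous arrays and 5.65 to 5.94 in control arrays. All CKO arrays were above all control arrays there, with a difference of 0.34 ± 0.15 that was not called (SE; adjusted p = 0.35). On the deposited scale CKO replicate 3, at an intensity of 37.1, lay within the control range of 36.5 to 49.4.

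**Figure D1:**
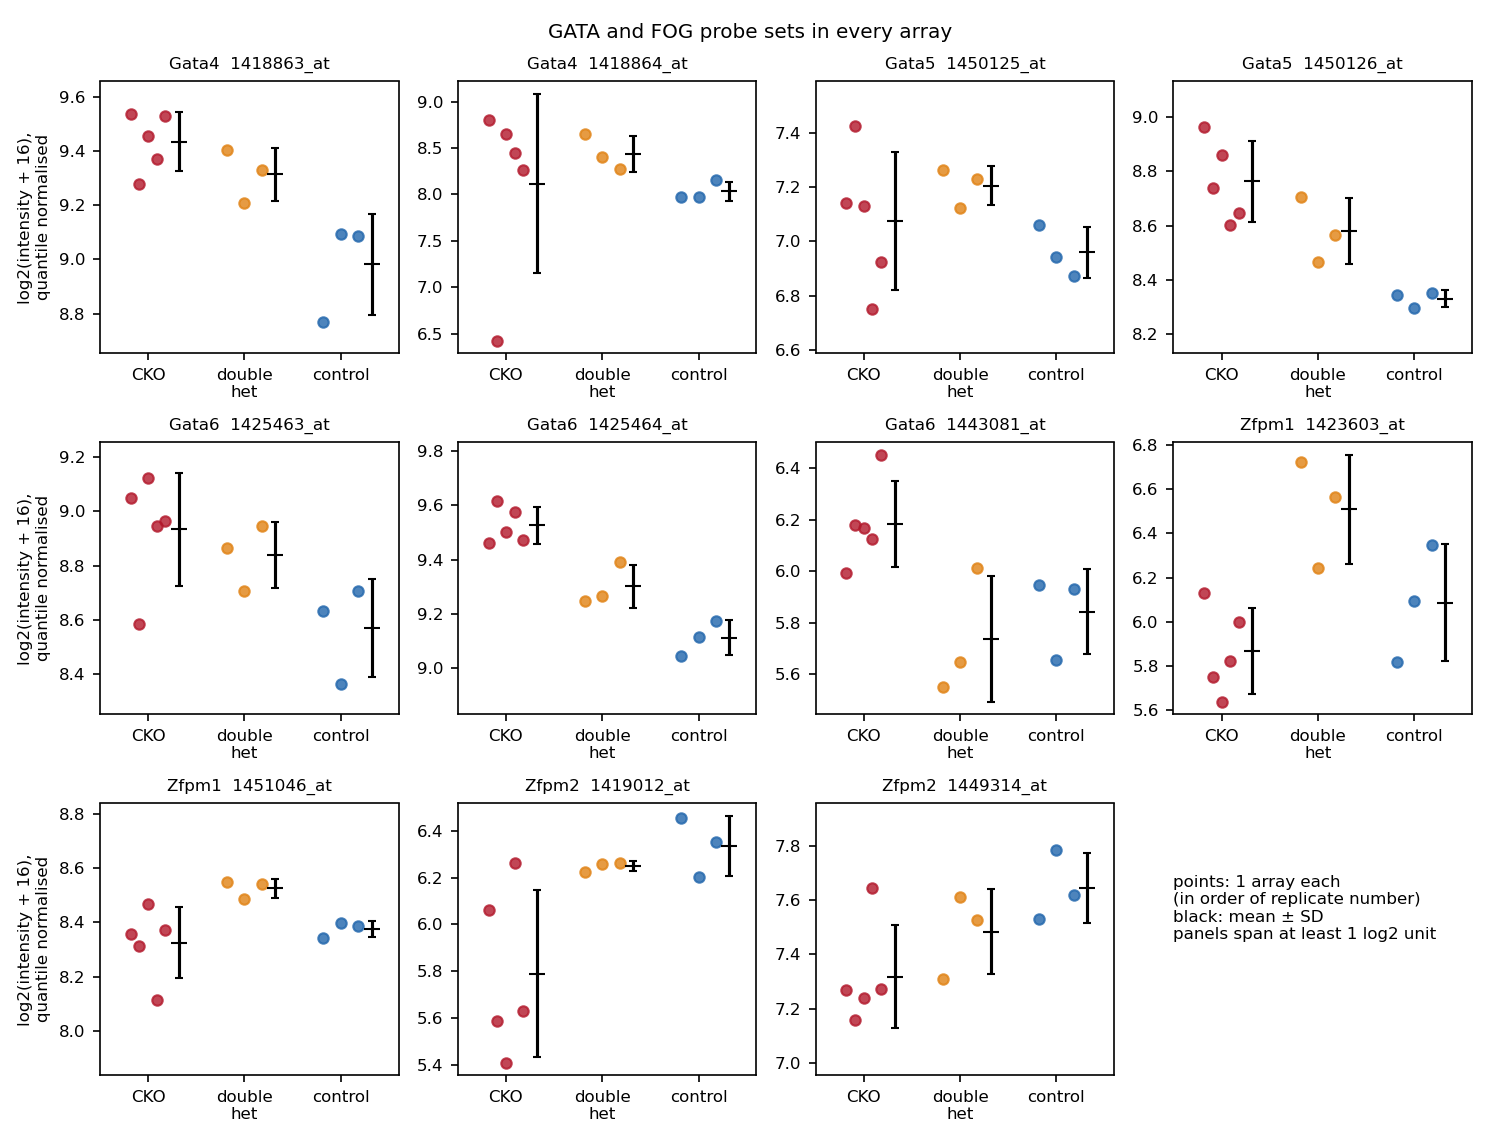
Quantile-normalised log2(intensity + 16) of the 11 GATA and FOG probe sets, 1 panel each; points are arrays, in order of replicate number, for CKO, double heterozygous (double het) and control hearts, and black marks are the mean ± SD. CKO arrays of Gata6 1425464_at, at 9.46 to 9.62, are above the other groups, and CKO replicate 2 is the low point of Gata4 1418864_at at 6.42.

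The FOG genes gave no call in any comparison. Zfpm1, the FOG1 gene, was at 8.36, 8.31, 8.47, 8.11 and 8.37 in CKO arrays on 1451046_at, at 8.55, 8.48 and 8.54 in double heterozygous arrays and at 8.34, 8.40 and 8.39 in control arrays. The double heterozygous arrays were above every other array, and CKO and control arrays overlapped. CKO minus control was -0.05 with a 95% interval of -0.25 to 0.15 (adjusted p = 0.882). This difference was -0.20 on the deposited scale and -0.21 after median centring, not called in either. CKO minus double heterozygous was -0.20 (adjusted p = 0.413). It was -0.32 on the deposited scale, -0.37 after median centring and -0.42 as the mean of the Zfpm1 probe sets, again not called.

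On the dim Zfpm1 probe set, 1423603_at, the CKO arrays had 6.13, 5.75, 5.64, 5.82 and 5.998, the double heterozygous arrays 6.72, 6.24 and 6.56, and the control arrays 5.82, 6.10 and 6.35. All CKO arrays were again below all double heterozygous arrays, and how many of all probe sets share this was not counted. CKO minus double heterozygous was -0.64, the farthest from 0 among the 11 members in that comparison (95% interval -0.99 to -0.29; adjusted p = 0.127). CKO minus control was -0.22 (adjusted p = 0.635), and -0.10 without CKO replicates 2 and 3.

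Zfpm2, the FOG2 gene, had lower means in CKO than in control hearts on both probe sets, and neither difference was called. On 1449314_at the CKO arrays had 7.27, 7.16, 7.24, 7.65 and 7.27, the double heterozygous arrays 7.31, 7.61 and 7.53, and the control arrays 7.53, 7.78 and 7.62. CKO replicate 4 was alone among the control values, and the other 4 CKO arrays were below every array of the other groups. CKO minus control was -0.33 (95% interval -0.60 to -0.06; adjusted p = 0.263), and -0.41 without CKO replicate 4 (adjusted p = 0.103).

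On the dim Zfpm2 probe set, 1419012_at, the CKO arrays had 6.06, 5.59, 5.41, 6.26 and 5.63, the double heterozygous arrays 6.22, 6.26 and 6.26, and the control arrays 6.45, 6.20 and 6.35. CKO replicate 4 was the highest CKO array here too, and the only one to reach a control. CKO minus control was -0.55 (95% interval -0.93 to -0.17; adjusted p = 0.165), and -0.36 without CKO replicates 2 and 3 (adjusted p = 0.264). The sign of both Zfpm2 differences was the same under all alternatives run.

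Against double heterozygous hearts, which share the Cre allele and differ in the second floxed Gata4 allele, CKO hearts showed no called member, while 0.286% of all probe sets were called higher (129 of 45037). At an unadjusted p under 0.05 there were 5 of the 11 members and 5399 of the 45037 probe sets. Gata6 1425464_at was 0.22 ± 0.08 higher (SE; adjusted p = 0.259) with no overlap between the groups after quantile normalisation. On the deposited scale CKO replicate 3 lay below the double heterozygous arrays. How many of all probe sets separate CKO from double heterozygous arrays was not counted. Such separation, here and for Zfpm1, is therefore no result about the members. Gata6 1443081_at differed by 0.45 (adjusted p = 0.256) and Zfpm2 1419012_at by -0.46 (adjusted p = 0.317), each with overlapping groups. The remaining members with an unadjusted p under 0.05 were the Zfpm1 probe sets. Gata5 1450126_at differed by 0.18, with an interval of -0.03 to 0.40 (adjusted p = 0.49). CKO minus control and CKO minus double heterozygous use the same CKO arrays, so their values for a gene are not independent.

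Double heterozygous hearts differ from control hearts in the Cre allele, which can also recombine their 1 floxed Gata4 allele, so that the Cre allele and the loss of a Gata4 copy cannot be told apart here. No member was called, and neither was any other probe set (0% called higher). At an unadjusted p under 0.05 there were 1435 probe sets, 4 of them members (limma). With array weights limma called 8 probe sets and none of the members, and an unmoderated one-way analysis called 0. For Gata4 1418863_at all 3 double heterozygous arrays were above all controls, by 0.33 ± 0.11 (SE; unadjusted p = 0.00785, adjusted p = 1). Gata5 1450126_at differed by 0.25 and Gata6 1425464_at by 0.19 (adjusted p = 1 for each), also without overlap, and Zfpm1 1423603_at by 0.42 with overlap. How many of all probe sets also separate these 2 groups of 3 arrays was not counted. The lack of overlap is therefore no result about the members.

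For the mean of both Cre groups against control hearts, no member was called either, and 0.107% of all probe sets were called higher. Gata4 differed by 0.39 (adjusted p = 0.176), Gata5 by 0.34 (adjusted p = 0.314) and Gata6 by 0.30 (adjusted p = 0.179) on the probe sets with the highest means. For these 3 probe sets all 8 arrays with Cre lay above all 3 control arrays after quantile normalisation, against 0.979% of all probe sets. This did not hold on the deposited scale, where CKO replicate 3 lay among or below the controls on each of the 3. The Cre allele and the deletion cannot be told apart in these comparisons with control hearts either. Nkx2-5 itself was at 8.78 to 9.64 in CKO arrays, 9.37 to 9.54 in double heterozygous arrays and 9.83 to 9.93 in control arrays. All Cre arrays were below the controls, with a CKO minus control difference of -0.53 that was not called (adjusted p = 0.099).

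**Figure D2:**
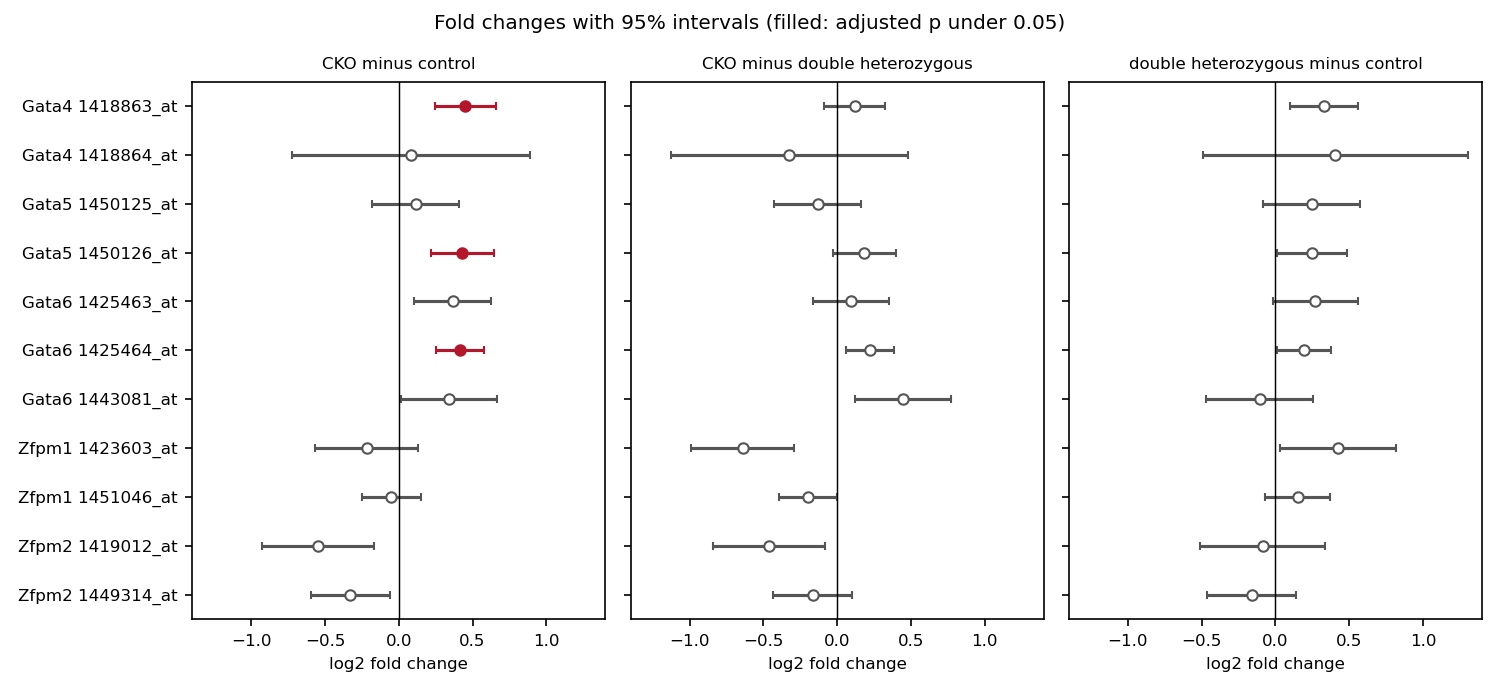
Log2 fold changes (x axis) of the 11 probe sets for CKO minus control, CKO minus double heterozygous and double heterozygous minus control, with 95% intervals; filled points were called at an adjusted p under 0.05. The 3 filled points, at 0.45 for Gata4, 0.43 for Gata5 and 0.41 for Gata6, are in the CKO minus control panel.

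Leaving out any 1 of the control arrays ended all 3 calls. For Gata4 the difference was 0.34 without control replicate 1 (adjusted p = 0.242), 0.51 without control replicate 2 (adjusted p = 0.0892) and 0.50 without control replicate 3 (adjusted p = 0.0857). For Gata5 it stayed between 0.41 and 0.44 (adjusted p = 0.159 to 0.219), and for Gata6 between 0.38 and 0.45 (adjusted p = 0.0558 to 0.119). Gata4 was also not called without CKO replicate 5 (0.43, adjusted p = 0.0902) or without double heterozygous replicate 1 (adjusted p = 0.0557) or 3 (adjusted p = 0.0537). Gata5 was also not called without CKO replicate 1 (0.38, adjusted p = 0.0611), 3 (0.41, adjusted p = 0.0596) or 5 (0.46, adjusted p = 0.0744), nor without any 1 of the double heterozygous arrays (adjusted p = 0.061 to 0.0742). The Gata6 call remained without any 1 CKO or double heterozygous array (adjusted p = 0.0135 to 0.0335). On these 3 probe sets the difference stayed above 0 in every alternative run.

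**Figure D3:**
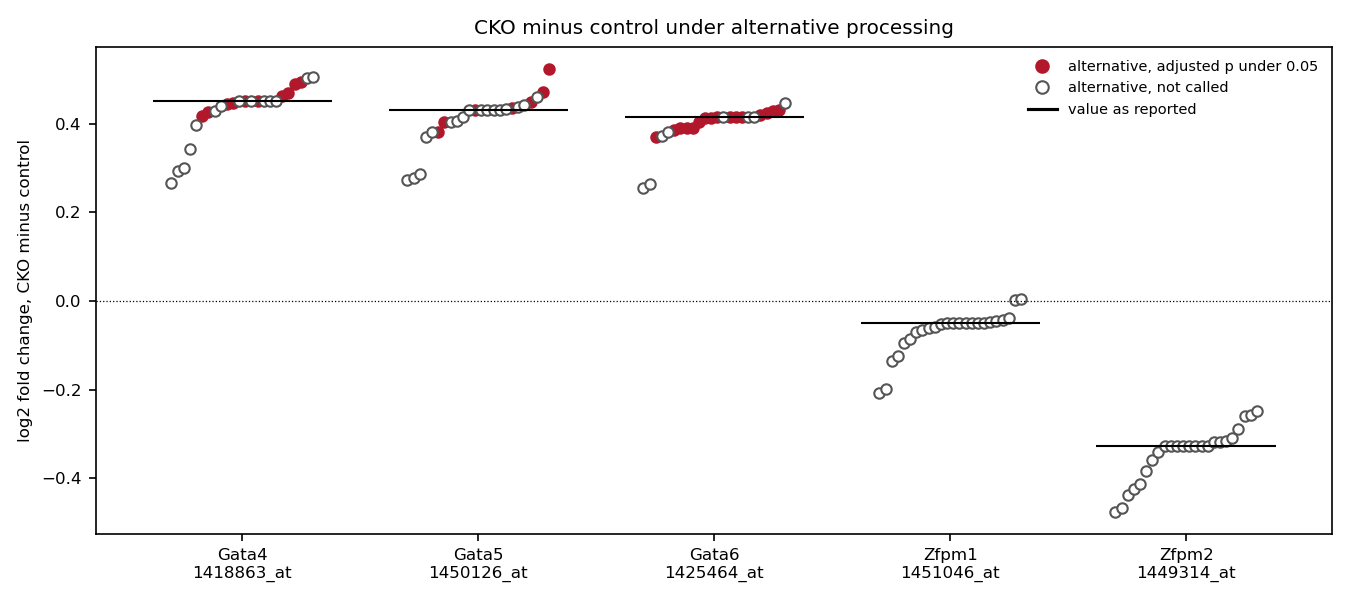
Log2 fold change of CKO minus control (y axis) for the probe set with the highest mean of each gene, under each alternative (points, ordered by value; filled where called) and as reported (line). Gata4, Gata5 and Gata6 stay above 0 and Zfpm2 stays below 0, whereas Zfpm1 spans -0.21 to 0.0051.

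The probe sets of 1 gene followed each other only in part over the 11 arrays. Pearson's r between probe sets was 0.33 for Gata4, 0.43 for Gata5, 0.46 to 0.66 for the 3 pairs of Gata6, 0.62 for Zfpm1 and 0.74 for Zfpm2. Between genes, on the probe sets with the highest means, r was 0.82 for Gata4 with Gata5, 0.76 for Gata4 with Gata6 and 0.75 for Gata5 with Gata6. Taken as differences from each group's mean, the same pairs gave 0.34, -0.11 and -0.35, so their likeness lay between the groups rather than within them. Gata5 and Zfpm2 ran opposite ways both over all arrays (r = -0.83) and within groups (r = -0.64). These correlations describe 11 arrays that share their scaling and the 3 genotype groups.

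Among 1801 genes with clear and variable signal, the closest in pattern to Gata6 was Smad4, the shared mediator of BMP and TGF-beta signalling (r = 0.97 over 11 arrays, 0.84 within groups). Meg3, an imprinted noncoding RNA (r = 0.95), Mtus2 (0.94), Plekha2 (0.94) and the netrin receptor gene Unc5b (0.93) came next by r. Gata4 was closest to Acta1, skeletal alpha-actin (r = 0.89), then Ifitm2 (0.86), the endocytic adaptor gene Dab2 (0.85), Serf1 (0.85) and Sertad2 (0.84). Gata5 was closest to the carbonic anhydrase gene Car4 (r = 0.93), then the smooth muscle gene Tagln (0.91), the transporter gene Slco3a1 (0.91), Eri3 (0.89) and the peptide hormone gene Cck (0.87).

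The FOG genes had other neighbours. Zfpm1 was closest to the histone gene H2ax (r = 0.90), Rangap1 (0.90), Pa2g4 (0.89), Cand2 (0.87) and the homeobox gene Prrx2 (0.86). Zfpm2 was closest to Phldb2 (r = 0.92), the fatty acid binding protein gene Fabp5 (0.89), the ceramide synthase gene Cers2 (0.88) and the collagen genes Col4a5 (0.88) and Col3a1 (0.86). Since these genes were picked for following the members over the same arrays, their own group differences are no separate result.

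**Figure D4:**
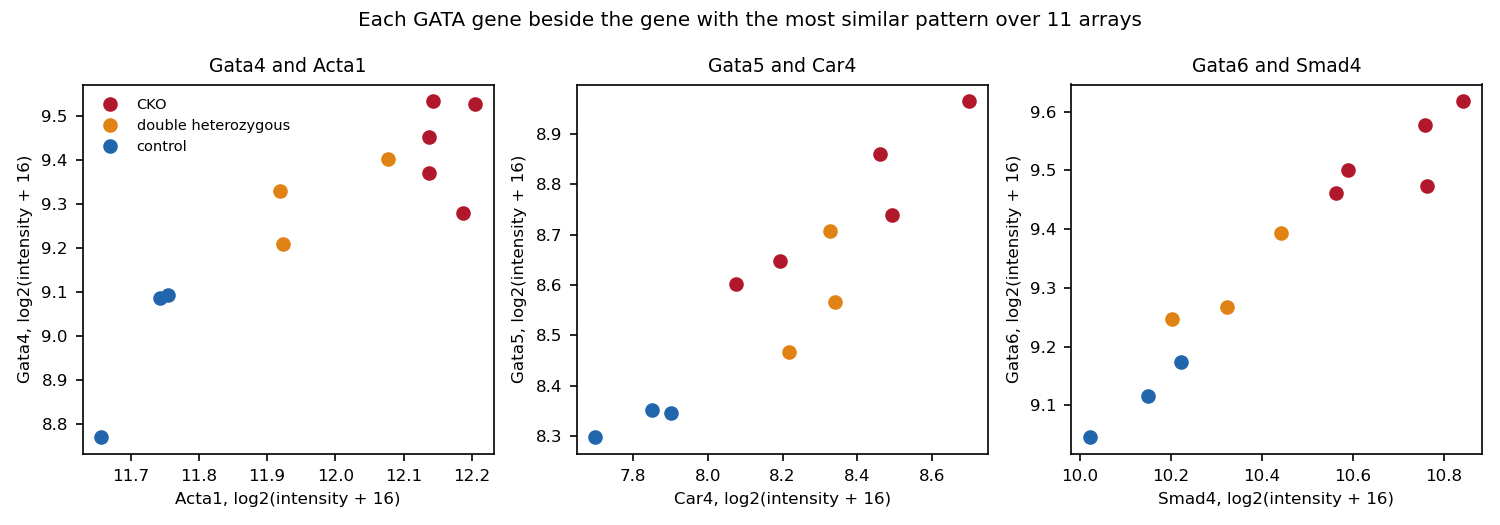
Log2(intensity + 16), quantile normalised, of Gata4 against Acta1, Gata5 against Car4 and Gata6 against Smad4; each point is 1 of 11 arrays, coloured as CKO, double heterozygous or control. The 3 control arrays are lowest on the y axis in each panel, and r is 0.89, 0.93 and 0.97.

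Lists of related genes were counted on 1 probe set per gene, beside 218 genes called higher and 157 called lower among 18193 (2.06%) in CKO against control hearts, with a median log2 fold change of -0.02. Of the other GATA family genes, Gata3, best known in T cells and sympathetic neurons, rose by 0.80 ± 0.17 (SE; adjusted p = 0.0288) and was the only call among 4. Gata1 of red blood cells (0.24), Gata2 of blood stem cells (0.25) and Trps1 (-0.52) were not called. Gata3 was also not called on the deposited scale (0.77, adjusted p = 0.23).

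Of 17 heart transcription factors that bind or act with GATA4, 2 rose and none fell, with a list median of 0.21, which was 0.07 on the deposited scale. Isl1, a marker of heart progenitors, was at 8.31 ± 0.19 in CKO hearts, 7.62 ± 0.11 in double heterozygous hearts and 6.94 ± 0.20 in control hearts (SD). It rose by 1.38 against control (adjusted p = 8.4e-05) and by 0.69 against double heterozygous hearts (adjusted p = 0.0308). Smad4 rose by 0.57 against control (adjusted p = 0.00258), though not on the deposited scale (0.41, adjusted p = 0.423). Tbx5 (0.39), Hand2 (0.07) and Mef2c (0.06), partners of GATA4 in heart muscle, were not called. Without CKO replicates 2 and 3, Jarid2 was also called higher (0.48, adjusted p = 0.035) and Nkx2-5 lower (-0.72, adjusted p = 0.00586).

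Of 12 coactivators and chromatin partners of GATA4, none was called, and the smallest p was that of the elongation kinase gene Cdk9 (-0.20, adjusted p = 0.221). Their median was -0.0054, and -0.15 on the deposited scale. Of the 14 NuRD and CtBP genes whose proteins FOG factors recruit, none was called either. The NuRD helicase gene Chd4 had the smallest p (0.37, adjusted p = 0.184), and the list median was -0.11, or -0.25 on the deposited scale.

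Of 20 genes described as GATA4 targets in the heart, 3 fell and 1 rose in CKO against control hearts. The angiotensin receptor gene Agtr1a fell by 0.97 (adjusted p = 0.00497), the cardiac troponin gene Tnni3 by 0.66 (adjusted p = 0.0266) and the cyclin gene Ccnd2, named in the title of the series, by 0.48 (adjusted p = 0.0197). Agtr1a and Ccnd2 also fell against double heterozygous hearts, by 0.89 (adjusted p = 0.0215) and 0.46 (adjusted p = 0.0497). The angiogenic factor gene Vegfa rose by 0.91 (adjusted p = 0.0451). The list median was 0.05, and -0.09 on the deposited scale, where Agtr1a and Tnni3 were still called and Ccnd2 and Vegfa were not (adjusted p = 0.0871 and 0.356). Nppa (0.13), Nppb (0.11), Myh6 (-0.18) and Actc1 (-0.02), natriuretic peptide and sarcomere genes of the same list, were not called. Nkx2-5 is on this list as well and was called lower without CKO replicates 2 and 3.

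Of 22 genes of BMP and WNT signalling, 3 rose and none fell, with a median of 0.18, or 0.048 on the deposited scale. The BMP target genes Smad7 and Id1 rose by 0.82 (adjusted p = 0.0129) and 0.41 (adjusted p = 0.0288), and the ligand gene Bmp7 by 0.46 (adjusted p = 0.0499). None of the 3 was called on the deposited scale (adjusted p = 0.348, 0.656 and 0.612), and Bmp7 was also not called without CKO replicates 2 and 3 (0.36, adjusted p = 0.0564).

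Markers of some other cells in the dissected tissue, though not of all, differed between the groups as well. GATA factors are also expressed outside heart muscle, and in pooled hearts fewer cells of a type and less RNA per cell cannot be told apart. Of 14 heart muscle genes 1 was called, Myh7 (0.27, adjusted p = 0.0154). The list median was 0.0026, with 7 higher means in CKO hearts, and -0.14 on the deposited scale, with 3. Summed intensities, for this list and those below, were taken after quantile normalisation. They were 73387 to 79794 in CKO, 74047 to 76996 in double heterozygous and 74971 to 76376 in control arrays. Without CKO replicates 2 and 3, Tnni1 was also called, lower (-0.30, adjusted p = 0.0135). Of 12 endothelial genes 11 had higher means in CKO hearts: Flt1 (0.98), Kdr (0.68, adjusted p = 0.00678) and Cdh5 (0.63) rose, and Tek fell by 0.65. Their summed intensity was 3208 to 3836 in CKO, 2725 to 2933 in double heterozygous and 2754 to 2919 in control arrays. CKO arrays thus did not overlap the others after quantile normalisation. The list median was 0.33, and 0.19 on the deposited scale, where 9 of the 12 had higher means.

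Of 10 proepicardium and mesothelium genes, Krt19 rose by 1.59 (adjusted p = 1.7e-06), Tcf21 fell by 1.31, Lrrn4 fell by 1.197 and Upk1b fell by 0.997. Only 2 of the 10 had higher means in CKO hearts, and the list median was -0.74. The summed intensity, 1777 to 2389 in CKO, 1089 to 1373 in double heterozygous and 1561 to 1797 in control arrays, points the other way and includes Krt19. Of 12 endoderm genes Sox17 alone was called (0.92, adjusted p = 0.00418). Their sums were 235 to 473 in CKO, 199 to 331 in double heterozygous and 230 to 291 in control arrays, and the defining genes Foxa1 and Foxa2 were at 0 in some arrays. Among 7 progenitor genes of the second heart field only Isl1 was called, and sums were 404 to 556 in CKO, 322 to 390 in double heterozygous and 232 to 260 in control arrays. These sums include Isl1, and the list median was 0.11 against control and -0.05 against double heterozygous hearts, where 2 of the 7 had higher means.

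Of 11 erythroid genes, the cells in which GATA1 and FOG1 act, none was called, and their sums overlapped at 12161 to 16801 in CKO, 12813 to 16075 in double heterozygous and 12667 to 15408 in control arrays. Without CKO replicates 2 and 3, the haem synthesis gene Alas2 was called higher (0.80, adjusted p = 0.0263). None was called among 6 genes of platelet-forming and other blood cells, with sums of 339 to 1017 in CKO, 301 to 391 in double heterozygous and 385 to 479 in control arrays. None was called among 8 of pharyngeal and neural crest mesenchyme either, with sums of 219 to 781 in CKO, 227 to 421 in double heterozygous and 281 to 294 in control arrays. On the deposited scale Krt19, Tcf21, Lrrn4, Tek and Isl1 were still called, and Flt1, Kdr, Cdh5, Upk1b, Sox17 and Myh7 were not. The part of these cell types in the signals of the GATA and FOG genes was not tested.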

How the data were processed

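RNA of pooled mouse hearts was measured on 11 arrays in 3 genotype groups taken from the labels. The authors deposited linear intensities, 1 per probe set and array, for 45101 probe sets. The values came from PLIER, per the submitters' processing notes; the sources used here do not give its version, the background correction or the scaling. Per the labels' protocols, 50 ng of TRIzol-extracted RNA was amplified with an Ovation kit. The number of arrays limits the precision.

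After 64 control probe sets were left out, log2(intensity + 16) was computed. Array medians spanned 0.465, above a limit of 0.2, so arrays were quantile normalised. A model with 1 mean per group was fitted to all 45037 probe sets with limma 3.58.1 (R 4.3.3), with an intensity trend, and two-sided p-values of each contrast received a Benjamini-Hochberg adjustment. The fit was tested on simulated data with normal spread and 200 changed probe sets. Of those changed by 0.4 log2 units, 4.48% were called in each CKO contrast and 1.49% in double heterozygous minus control. At 0.8 the shares were 44.8% in CKO minus control and 40.3% in double heterozygous minus control. A probe set that was not called may thus still have changed by such amounts. Of the probe sets, 34945 had 1 symbol in the platform annotation, 932 several and 9160 none; the last 2 kinds were not named. A gene outside the members, and each member in correlations, stands on its brightest probe set on average, with _x_at and _s_at used only where no other exists. No 2 arrays shared over 0.829% identical values.

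The members and lists were chosen with earlier results of these data known. The rule named every member probe set, the 5 genes most correlated with each member (mean log2 of at least 8, SD in the upper part of those genes), up to 4 called genes per list by smallest p or else the 1 with the smallest p, and Nkx2-5 and Ccnd2; other genes were named after their values were seen. Alternatives changed the offset, scaling, filter, moderation, arrays, probe set rule and a replicate block.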

Additional observations from a re-analysis of the deposited data

Results flagged for a closer look

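Within the CKO group, 2 of the 11 GATA and FOG probe sets held an array whose gap to its nearest neighbour was more than 0.71 of the range of the 5 arrays, Dixon's 95% limit. Chance gives such a gap in about 1 of 20 groups. For Gata4 1418864_at it was CKO replicate 2, at 6.42, the lowest of the CKO arrays. The actin control probes of that array also had the largest 3′ minus 5′ difference, 1.001. For Zfpm2 1449314_at it was CKO replicate 4, at 7.65, the highest of the CKO arrays. These gaps were taken after quantile normalisation. On the deposited scale the CKO log2 values of this Zfpm2 probe set were 7.33, 7.17, 6.69, 7.72 and 7.34. The gap of CKO replicate 4 fell short of the limit there. CKO replicate 4 was also the highest of the CKO group on the other Zfpm2 probe set, at 6.26, and the lowest for Nkx2-5, at 8.78.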

How the results depend on the processing

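For CKO minus control, Gata4, Gata5 and Gata6 stayed higher in all 24 alternatives on the probe sets with the highest means, but the calls did not hold in all of them. The log2 differences were 0.30, 0.29 and 0.26 on the deposited scale and 0.29, 0.28 and 0.26 after median centring, none called. Without the intensity trend they were 0.45, 0.43 and 0.41, none called (adjusted p = 0.118, 0.127 and 0.0904). With the unmoderated one-way analysis, and with only the 2 groups compared, Gata4 (0.45) and Gata5 (0.43) were not called. Averaging all probe sets of a gene gave 0.27, 0.27 and 0.37, none called. With CKO replicates 2 and 3 both left out, Gata5 was not called (0.40), and on the deposited scale without CKO replicate 3, chosen after seeing the data, Gata4 (0.40) and Gata5 (0.37) were not. Leaving out 1 array gave 0.34 to 0.51, 0.38 to 0.47 and 0.38 to 0.45. Numbers are shared between groups, and same-numbered arrays deviated together with correlations of -0.056 to 0.15. Arrays with different numbers were not compared, so these values cannot tell whether the numbers pair samples. The main fit took no pairing. With a replicate block the values were 0.44, 0.52 and 0.41, with Gata5 alone called (adjusted p = 0.0305). CKO replicates 4 and 5 have no same-numbered array in the other groups and so did not enter these differences. The block setting, for every probe set, thus compares CKO replicates 1 to 3 alone with control, among them the dim CKO replicate 3. The cause of these lost calls was not tested.

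The member calls of that comparison numbered 0 on the deposited scale, after median centring and without the trend, 1 with the unmoderated analysis, with 2 groups only, with the replicate block and on the deposited scale without CKO replicate 3, and 0 to 4 when leaving out 1 array. For the mean of the Cre groups they numbered 2 with array weights. Signs turned for Gata4 1418864_at (deposited scale -0.081, median centring -0.090, replicate block -0.075, deposited scale without CKO replicate 3 -0.11, leaving out 1 array -0.091 to 0.51), for Gata5 1450125_at (-0.0065, -0.015 and, without CKO replicates 2 and 3, -0.021) and for Zfpm1 1451046_at (replicate block 0.0051, leaving out 1 array -0.086 to 0.0024). They also turned for Gata4 in CKO minus double heterozygous (-0.0035, -0.051 and, as mean of probe sets, -0.10) and Zfpm1 in Cre groups minus control (-0.037 and -0.022).

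Calls over all probe sets were 632 for CKO minus control, and 92 (deposited scale), 362 (median centring), 1002 (mean log2 of at least 6), 281 (no trend), 2393 (array weights), 296 (unmoderated), 263 (2 groups), 1362 (without CKO replicates 2 and 3), 265 (replicate block) and 168 to 897 (leaving out 1 array). For CKO minus double heterozygous they were 157, and in the same order 15, 65, 259, 53, 613, 1, 61, 650, 65 and 15 to 415, with 453 on the deposited scale without CKO replicate 3. For double heterozygous minus control they were 0, but 8 with array weights, 1 with 2 groups and 2 without CKO replicates 2 and 3. For the Cre groups they were 65, against 5 (deposited scale), 30 (median centring), 19 (no trend), 379 (array weights), 3 (unmoderated), 189 (without CKO replicates 2 and 3), 38 (replicate block) and 10 to 117 (leaving out 1 array).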
